A study of Mus musculus with 45 samples.

Results

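Mouse embryonic fibroblasts (MEFs) were compared on day 2 of reprogramming with and without a set of small molecules, written F/R/C in the labels. The comparison uses 6 of the 45 libraries of the study, chosen by their titles: 3 of cells given doxycycline and F/R/C for 2 days, and 3 of cells given doxycycline alone for 2 days, matched by replicate number. All 6 came from MEFs of the genotype Tg:Pax7-nGFP/C57BL6;DBA2, which carry nuclear GFP under control of Pax7, the gene of a regulator in muscle stem cells, and in which doxycycline switches on MyoD, the transcription factor that turns fibroblasts into muscle. Both arms therefore received MyoD, and the arms differ by F/R/C. The remaining libraries cover untreated MEFs, later days of both arms up to day 10, established progenitor lines and myoblasts. In them, MyoD alone yields multinucleated myotubes, and MyoD with F/R/C yields induced myogenic progenitor cells (iMPCs). Only the letters are given in the labels; in published work of this kind they stand for forskolin, RepSox and CHIR99021. The agents were given together, so the effect of 1 of them cannot be told apart from that of the others. Animals or embryos behind the replicate numbers are not described, so p-values measure the spread between these libraries, which may be partly technical.

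Forskolin activates adenylyl cyclase and so raises cyclic AMP, which acts through protein kinase A and the transcription factor CREB. RepSox blocks the type I receptor of transforming growth factor β (TGF-β), whose SMAD proteins drive matrix, cytoskeletal and feedback genes in fibroblasts. CHIR99021 blocks the kinase GSK3, which otherwise marks β-catenin for destruction, and so switches on Wnt target genes through TCF/LEF factors. TGF-β signalling restrains muscle differentiation in culture, whereas MyoD drives cells out of division and into fusion.

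The day 2 libraries held 19.92 to 24.34 M reads. Their replicates correlated at 0.982 to 0.985 across genes, and same-numbered libraries of the arms deviated from their group means together. With 14094 genes tested by edgeR's quasi-likelihood test in matched pairs, 1823 were called. A call required an adjusted p (Benjamini-Hochberg) below 0.05 together with a log2 fold change of 1 or more in size. They are 12.9% of the genes tested. Of these, 932 (6.61%) were higher with F/R/C and 891 (6.32%) were lower. A call from matched pairs at this fold nearly requires agreement between pairs, and 1822 of the 1823 moved the same way in all 3. The median log2 fold change over all genes tested was 0.01. Without a minimum fold change 6279 genes passed (44.6%). A model of all 45 libraries without pairing, in which the spread of later days and other cell types also enters, called 854, and 74 of the 147 tested genes named here kept their call or lack of one in it. Mitochondrially encoded transcripts took 1.9% to 1.99% of the reads with F/R/C and 1.42% to 1.69% without. The part of this in the results was not tested.

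**Figure D1:**
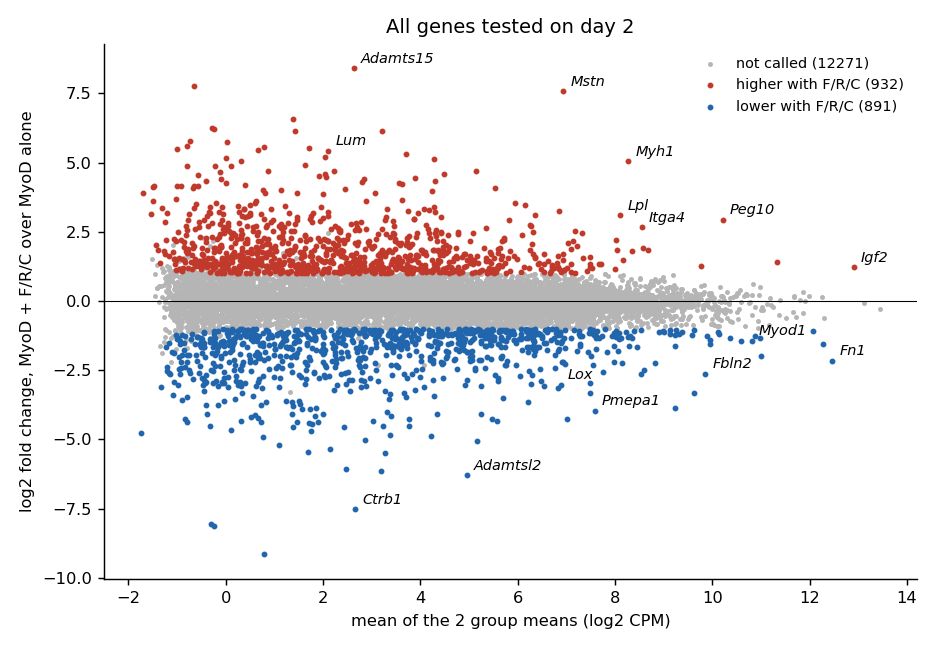
Each point is 1 of the 14094 genes tested on day 2, with the mean level of both arms on the x axis (log2 CPM) and the log2 fold change of MyoD with F/R/C over MyoD alone on the y axis. Red points (932) were called higher and blue points (891) lower, and grey points were not called. Mstn, Myh1 and Peg10 combine a high level with a large rise, and Fn1 combines a high level with a large fall.

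Myod1, the induced gene (chromosome 7, 46376474 to 46379099, GRCm38), was lower with F/R/C. It stood at 800, 1353 and 723 CPM (read counts scaled to library size) in replicates 1, 2 and 3 with F/R/C and at 1998, 3575 and 2303 CPM with MyoD alone. The arms did not overlap, and replicate 2 was the highest in both. In the paired edgeR fit this was -1.44 on the log2 scale, with an SE of 0.08 and an adjusted p of 1.3e-04. Untreated MEFs had 0.761 to 8.84 CPM, so both arms were far above the starting cells. Reads of the transgene and of the endogenous gene were not told apart. In the model of all 45 libraries without pairing, the adjusted p was 0.12 at a log2 fold change of -1.45.

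The largest rise in fold was that of Adamts15, a secreted protease of matrix proteoglycans. It had 3.13, 8.82 and 25.3 CPM with F/R/C and 2 reads in all 3 libraries of MyoD alone together. The ratio was 371, with a 95% exact interval of 102 to 3072 that covers counting error only. Mstn, myostatin, the secreted inhibitor of muscle growth (chromosome 1, 53061640 to 53068079), combined a large fold with a high level. Its CPM were 189, 310 and 234 with F/R/C and 0.827, 2.75 and 0.539 without, which edgeR put at a rise of 7.59 on the log2 scale (SE 0.25) and an adjusted p of 4.3e-05. Its arms were more than an order of magnitude apart in every pair.

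The other 8 genes with the largest rises were of several kinds. Scara5, a scavenger receptor that takes up ferritin, had 1.59 to 9.62 CPM with F/R/C against 3 reads in all without, a ratio of 103 (interval 35.1 to 504). Car2, a carbonic anhydrase, had 2.44 to 9.12 CPM against 4 reads, a ratio of 79.8 (30.9 to 295). The chemokine Ccl11 (log2 fold change 6.13), the phosphatase regulator Ppp1r27 (5.54), the matrix proteoglycan Lum (5.43) and Magel2 (5.32) followed. Ednrb, an endothelin receptor, and Agtr2, the angiotensin type 2 receptor, rose by 5.21 and 5.14. Several of these genes are expressed in the starting cells. Agtr2 averaged 243 ± 81.7 CPM (SD, n = 3) in MEFs, 1.06 ± 0.418 in MyoD alone and 37.6 ± 25.6 with F/R/C. Lum had 7.16 to 221 CPM in MEFs, 0.0486 to 0.36 with MyoD alone and 2.34 to 18.2 with F/R/C. Mstn, Car2 and Ppp1r27 differ from these in that their MEF means, 1.21, 0.0147 and 0.0155 CPM, lie far below the F/R/C arm.

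Among called genes, the largest rises in mean CPM were those of Igf2, Igfbp5, Peg10, Cdkn1c, Myh1 and Itga4. Igf2, insulin-like growth factor 2, had 8303, 12826 and 10884 CPM with F/R/C and 3488, 5178 and 5323 without. The arms did not overlap, and by edgeR they differed by 1.22 on the log2 scale (SE 0.08) with an adjusted p of 1.8e-04. Peg10, an imprinted gene derived from a retrotransposon, had 2155, 2500 and 1628 CPM against 253, 388 and 206 (log2 fold change 2.94). Itga4, the α4 subunit of the integrin that binds VCAM1, had 609, 897 and 438 CPM against 94.6, 117 and 90.4 (2.66). Igfbp5, an IGF-binding protein, averaged 3722 ± 766 CPM against 1397 ± 37.2, and Cdkn1c, the cell cycle inhibitor p57, 1229 ± 266 against 516 ± 116 (SD, n = 3). Igf2, Igfbp5 and Cdkn1c no longer passed in the model of all 45 libraries (adjusted p 0.21, 0.15 and 0.38), while Peg10, Myh1 and Itga4 did.

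Of the 10 genes with the largest falls in fold, all except Pdzd2 had means in MEFs of 0.431 CPM (Pacsin1) or less. Ctrb1, a chymotrypsinogen, had 12.3, 12.8 and 12.3 CPM with MyoD alone and 4 reads in all with F/R/C, so the arm with MyoD alone was higher by a ratio of 204 (interval 79.2 to 750). Adamtsl2, a secreted matrix protein, had 43.1, 70.3 and 70.4 CPM with MyoD alone and 0.581, 1.31 and 0.414 with F/R/C, or -6.29 on the log2 scale (SE 0.22, edgeR adjusted p 4.6e-05). Art1, an ADP-ribosyltransferase of the muscle cell surface, had 58.9, 82.8 and 66.7 CPM against 2.28, 3.0 and 0.921. Pnmt, the enzyme that makes adrenaline from noradrenaline, fell by 5.47 on the log2 scale, and Pacsin1, an adaptor of endocytosis, by 4.88. The drug transporter Slco2b1, the aldehyde dehydrogenase Aldh3b3, Stum and the matrix protein Cilp had log2 fold changes between -6.16 and -5.36. Pdzd2 had a log2 fold change of -5.02 and a MEF level of 27.4 ± 18.3 CPM (SD, n = 3), with a mean above those of both arms.

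Targets of TGF-β were mostly lower with F/R/C. Of 23 listed genes, all tested, 13 were called lower and 1 higher, against 6.32% lower and 6.61% higher over all genes tested. Their median log2 fold change was -1.09. Pmepa1, a feedback inhibitor of SMAD signalling (chromosome 2, 173224458 to 173276533), had 23.5, 24.1 and 20.5 CPM with F/R/C and 334, 390 and 360 without (log2 fold change -3.97, SE 0.08, edgeR adjusted p 1.2e-05). The MEFs lay between the arms, at 63.4 to 89.7 CPM. Lox, which cross-links collagen, fell by 3.02, and Bhlhe40, a transcriptional repressor, by 3.05.

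Other members of the TGF-β list fell less. Ccn2, the matricellular protein CTGF, fell by 2.51, the integrin subunit Itgb5 by 1.78 and Thbs1, thrombospondin 1, which can release active TGF-β, by 1.57. Among feedback inhibitors, Skil fell by 1.8 and Smad7 by 1.63. Ski was at -0.98 (adjusted p 2.0e-04), just under the fold required. Among ligands, Tgfb1 (-1.07) and Tgfb2 (-1.09) fell, and Tgfb3 was at 0.19 (edgeR adjusted p 0.15). Ltbp2 fell by 1.16. Nox4, an oxidase that makes hydrogen peroxide, fell by 1.39. Tgfbi went the other way, from 5.01, 2.75 and 4.14 CPM to 23.0, 9.47 and 11.2 (log2 fold change 1.84). Without pairing, Nox4, Tgfb2 and Ltbp2 did not pass (adjusted p 0.08, 0.051 and 0.15). Leaving out pair 2 took Tgfb1 to -0.95 and leaving out pair 3 took Tgfb2 to -0.99. The model of all 45 libraries called 8 members lower and none higher.

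**Figure D2:**
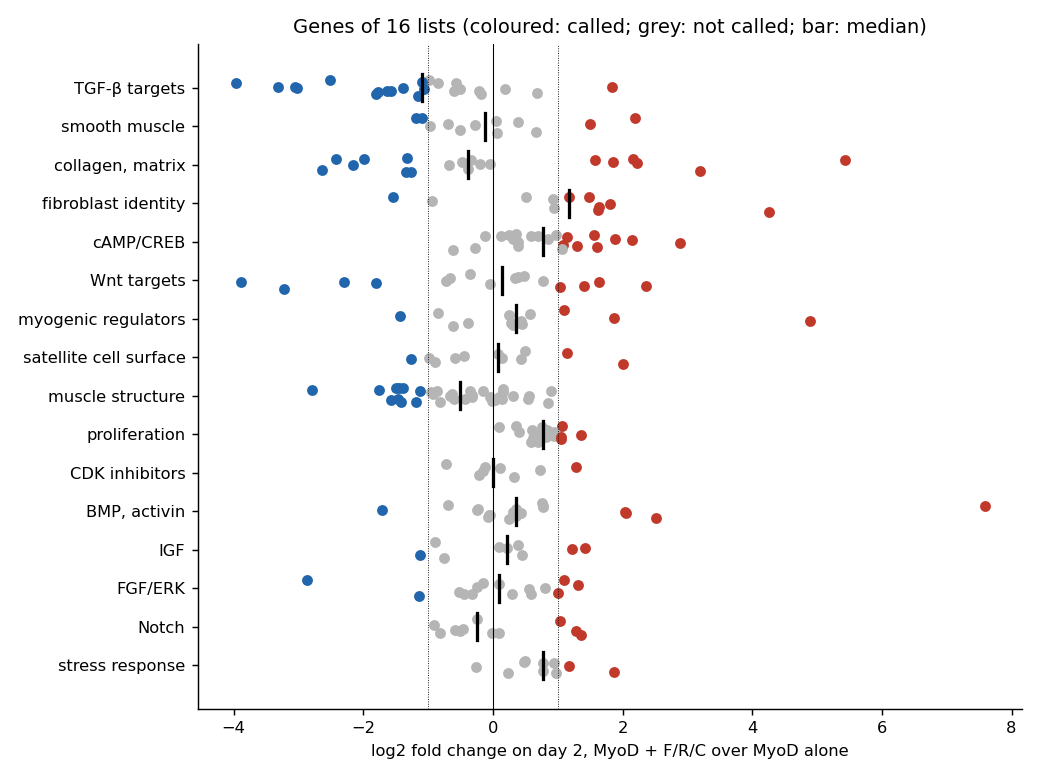
Each point is a gene of 1 of 16 lists, placed by its log2 fold change on day 2 (MyoD with F/R/C over MyoD alone). Red and blue points were called higher and lower, grey points were not called, black bars are list medians, and dotted lines mark a log2 fold change of 1 either way. The TGF-β targets have their median at -1.09, all 24 proliferation genes are above 0, and the Wnt and matrix lists spread to both sides.

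Matrix genes split in 2 directions. Of 19 tested, 6 rose and 7 fell, against 6.61% and 6.32% of all genes tested. The fibrillar collagen genes Col1a1 (log2 fold change -1.32), Col1a2 (-1.27) and Col5a2 (-1.34) fell, as did Fn1, Bgn, Fbln2 and Col14a1. Fn1, fibronectin, had 3454, 1802 and 1198 CPM with F/R/C and 11931, 7933 and 7433 without (-2.16, SE 0.16, edgeR adjusted p 2.3e-04). Its level with MyoD alone was within the MEF range of 5681 to 14748 CPM. Bgn, the proteoglycan biglycan, fell from 2906 to 3808 CPM in the 3 libraries of MyoD alone to 665 to 1151 with F/R/C. By contrast, the 3 chains of collagen VI rose together: Col6a1 by 1.86, Col6a2 by 2.16 and Col6a3 by 2.22. Col6a1 had 402, 242 and 608 CPM with F/R/C, 117, 85.7 and 131 with MyoD alone and 806 to 896 in MEFs. The proteoglycans Lum and Dcn (decorin, 3.2) and the glycoprotein Fbln1 (1.57) also rose. Col3a1 showed -0.05 (adjusted p 0.75).

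The matrix changes had limits. Col1a1 and Col6a3 did not pass without pairing (adjusted p 0.052 and 0.07), and Col14a1, at most 6.34 CPM in any day 2 library, did not pass without pair 2 (0.071). With all 45 libraries in the model, 1 matrix gene rose and none fell.

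Among 12 smooth muscle genes, which TGF-β also drives in fibroblasts, 2 rose and 2 fell. Over all genes tested the shares were 6.61% and 6.32%. Acta2, smooth muscle actin, had 3429, 2862 and 1914 CPM with F/R/C and 6018, 6603 and 4909 without (log2 fold change -1.1). Tagln, which binds actin, fell by 1.18. Myh11, the smooth muscle myosin, rose from 29.3, 13.4 and 11.8 CPM to 161, 59.7 and 41.5 without overlap, and Synpo2, an actin-binding protein, rose by 1.49. Without pair 3, Acta2 was at -0.98 and Tagln at -0.99, and neither passed.

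Fibroblast regulators were mostly higher. Of 11 tested, 6 rose and 1 fell, against 6.61% and 6.32% of all genes tested. The list median log2 fold change was 1.17. Prrx1, a homeobox factor of mesenchyme, had 543, 426 and 537 CPM with F/R/C and 159, 115 and 166 with MyoD alone (1.81, SE 0.07, edgeR adjusted p 4.9e-05), against 577 ± 130 in MEFs. Twist2 rose by 1.48, the growth factor receptor Pdgfra by 1.62, the zinc finger factors Osr1 and Osr2 by 1.63 and 4.26, and Pdgfrb by 1.17. Tbx18 fell from 49.7, 78.7 and 88.7 to 19.2, 21.6 and 32.4 CPM. Thy1 was 0.94 higher (adjusted p 1.9e-04), under the fold required. Libraries of bulk cells cannot tell more fibroblast-like cells from more of this RNA per cell. The 12 genes summed to 1249 to 1913 CPM with F/R/C and 778 to 1007 with MyoD alone. The sum of a second list, 5 of these genes with Col1a1, Col1a2 and Col3a1, ran the other way, at 3329 to 5736 CPM with F/R/C and 5128 to 7381 without, with 4 members higher and 2 lower. In the model of all 45 libraries 1 gene rose and 1 fell, without pairing Pdgfra (adjusted p 0.052) and Pdgfrb (0.077) did not pass, and without pair 3 Pdgfrb was at 0.78.

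The called genes of the cyclic AMP response were all higher with F/R/C. Of 22 tested, 8 rose and none fell, against 6.61% and 6.32% of all genes tested. The list median log2 fold change was 0.77. The phosphodiesterases, which break down cyclic nucleotides, stood out among them: Pde3a rose by 2.88, Pde3b by 2.15, Pde4b by 1.89 and Pde10a by 1.56. Pde4b had 66.6, 56.7 and 104 CPM with F/R/C and 22.4, 13.5 and 26.4 with MyoD alone, with no overlap. Pde3a had 36.5, 11.0 and 10.2 CPM against 4.77, 1.32 and 1.71, with replicate 1 highest in both arms. Pde4d was at 0.97 (edgeR adjusted p 6.9e-04) and Pde4a at -0.62 (0.0039), both under the fold required. Crem, a CREB-family factor that CREB itself induces, rose by 1.08. Ppargc1a, the coactivator PGC-1α (1.3), Rgs2, which dampens G protein signals (1.15), and Areg, an EGF-family ligand (1.6), rose too.

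The immediate early genes of the cyclic AMP list did not reach the fold required: Fos was at 0.35 (adjusted p 0.03), Nr4a1 at 0.39 (0.064) and Sik1 at 0.25 (0.016). Leaving out pair 1 took Crem to 0.97 and Rgs2 to 0.94, and leaving out pair 3 took Ppargc1a to 0.99, so these calls sit at the threshold. All 45 libraries fitted together gave 4 rises in the list.

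Areg was the only called gene of the list with the palindromic cyclic AMP response element TGACGTCA in its promoter, among 5 of the 8 called genes that had a RefSeq promoter (250 bases before to 50 after the start). It is shown because element and response meet in 1 gene. The element, in capitals, starts 61 bases before the transcription start (-61). The window is chr5:91139349-91139648 on the + strand of GRCm38.p6.
Areg: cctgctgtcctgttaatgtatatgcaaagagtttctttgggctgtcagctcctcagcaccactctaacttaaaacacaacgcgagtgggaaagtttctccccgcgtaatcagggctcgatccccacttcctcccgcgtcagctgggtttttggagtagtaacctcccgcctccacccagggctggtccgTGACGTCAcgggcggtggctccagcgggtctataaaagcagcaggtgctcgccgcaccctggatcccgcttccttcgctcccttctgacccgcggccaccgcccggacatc
Areg had 13.1, 6.71 and 10.4 CPM with F/R/C and 2.29, 4.19 and 3.55 without. Among genes with a RefSeq promoter, 2.55% of those called higher, 1.46% of those called lower and 3.52% of all tested had the element. A gene can have several promoter windows. Of all 32851 windows, 1.79% held it. A match of letters is a description and no evidence of binding.

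Wnt targets did not move one way. Of 16 tested, 4 rose and 4 fell, against 6.61% and 6.32% of all genes tested. The list median log2 fold change was 0.14. Axin2, the feedback inhibitor that scaffolds β-catenin destruction (chromosome 11, 108920349 to 108950783), had 3.13, 7.36 and 7.36 CPM with F/R/C and 1.7, 2.87 and 2.07 without (1.41, SE 0.22, edgeR adjusted p 0.0035). Nkd2, another feedback inhibitor, rose by 2.36, Lgr5, a receptor for R-spondin, by 1.63 and the Wnt inhibitor Apcdd1 by 1.04. Lef1 and Tcf7, transcription factors that carry β-catenin to DNA, fell by 2.3 and 1.81. Lef1 had 0.938, 0.75 and 0.782 CPM with F/R/C against 3.16, 4.19 and 5.35. The secreted Wnt inhibitor Wif1 fell by 3.89 and Lgr6 by 3.22. Ccnd1, cyclin D1, was at 0.48 (0.022). The 45-library model called 4 genes lower and none higher. The TCF/LEF letters ATCAAAG were in none of the 6 called genes of this list with a promoter. Among all genes with a promoter, 3.0% of those called higher, 2.27% of those called lower and 2.99% of those tested had them.

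**Figure D3:**
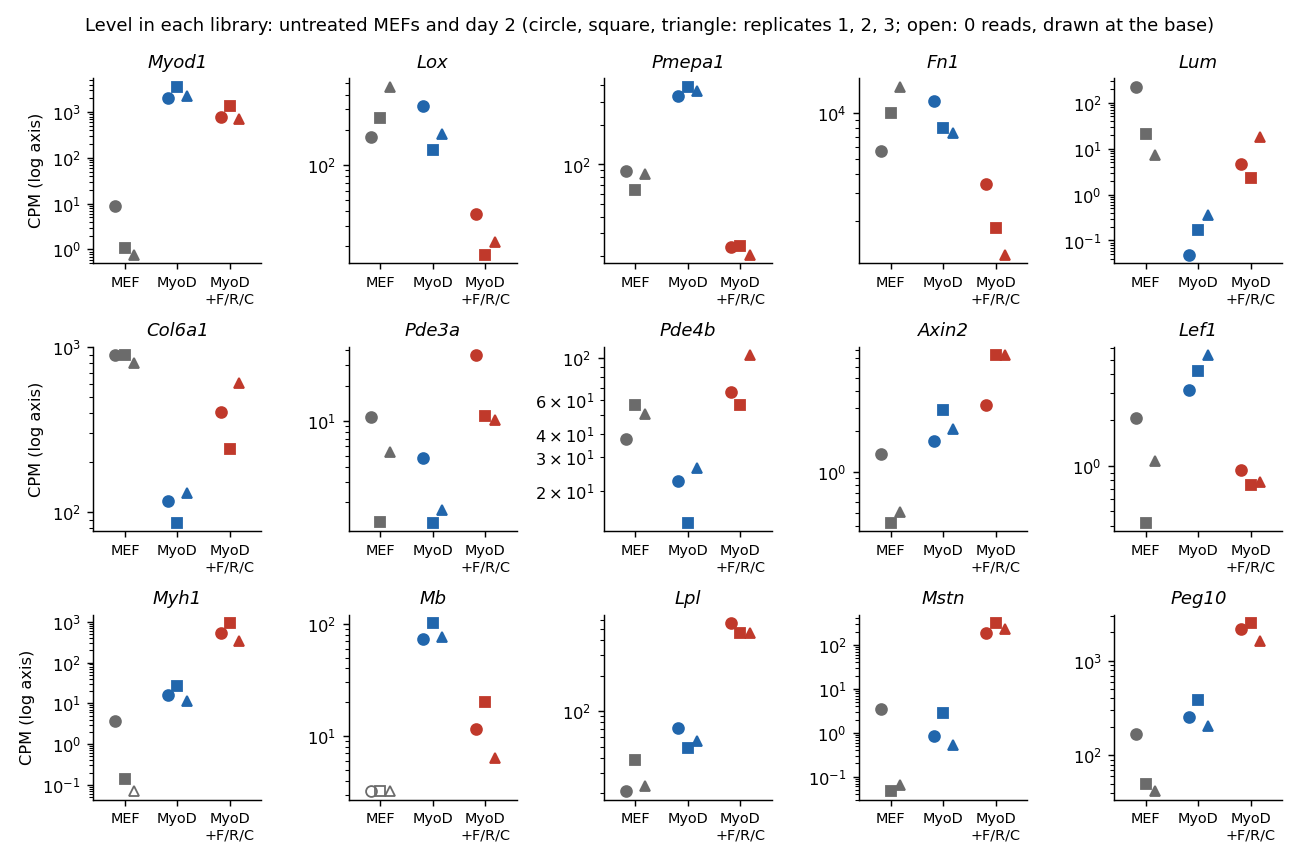
Panels give the CPM of 15 genes in each library of untreated MEFs (grey), day 2 of MyoD alone (blue) and day 2 of MyoD with F/R/C (red), on log axes that differ between panels. Circles, squares and triangles are replicates 1, 2 and 3, and open symbols at the base are libraries with 0 reads. The arms do not overlap in any of the 15 genes. All 15 were chosen among genes called on day 2, so this follows largely from the choice. With F/R/C, Pmepa1 is below and Axin2 above all MEF libraries, Col6a1 lies between MyoD alone and MEFs, and Lum overlaps the MEF range.

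Genes of the muscle contractile and fusion machinery were partly lower with F/R/C. Of 34 tested, 10 fell and none rose, against 6.32% and 6.61% of all genes tested. The list median log2 fold change was -0.52. By sign, 10 of the 34 were above 0. At an edgeR adjusted p under 0.05 alone, 4 were higher and 21 lower. The fusion proteins Mymk and Mymx fell by 1.57 and 1.75. Mymk had 350, 719 and 436 CPM with F/R/C and 1145, 1922 and 1380 with MyoD alone (edgeR adjusted p 9.0e-05). Mb, myoglobin, fell most: it had no reads in MEFs, 73.8, 101 and 77.0 CPM with MyoD alone and 11.5, 20.0 and 6.44 with F/R/C (-2.79, SE 0.22). Tnnt2 and Tnnt3, troponin T genes, fell by 1.45 and 1.13, the embryonic light chain Myl4 by 1.41, the caveolin Cav3 by 1.5, Tcap by 1.39, the muscle creatine kinase Ckm by 1.47 and the acetylcholine receptor subunit Chrna1 by 1.19. Others were close to or under the fold required: Chrnb1 was at -0.96 and the skeletal actin Acta1 at -0.6 (3112, 5887 and 3134 CPM against 5025, 7646 and 5513).

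These falls moved with Myod1, which was itself lower in the same libraries, and the part of Myod1 in them was not tested. The 34 genes summed to 20814 to 36067 CPM with F/R/C and 26884 to 42950 without. These ranges across replicates overlapped, which does not speak to the difference within pairs. Without pairing, Ckm and Chrna1 did not pass (adjusted p 0.052 and 0.065), and Chrna1 was at -0.94 without pair 3. In the model of all 45 libraries, 2 genes fell.

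The sarcomeric myosins Myh3, Myh7 and Myh8 of the muscle list were not called, and Myh1, which is not in that list, rose. Per transcript length, the embryonic myosin Myh3 was the highest in both arms, at 1506 ± 378 TPM with F/R/C and 1299 ± 231 without (SD, n = 3; log2 fold change from counts 0.15, edgeR adjusted p 0.19). Myh1, the adult fast IIx myosin (chromosome 11, 67200052 to 67224575), rose from 15.8, 26.1 and 11.6 CPM to 530, 919 and 346 (5.06, SE 0.08, adjusted p 8.4e-06), the lowest adjusted p among the genes named here. It reached 180 ± 78.6 TPM with F/R/C, near the 188 ± 71.9 TPM of the perinatal Myh8. The neighbouring fast myosins Myh2 and Myh4, named after their values were seen, rose by 2.16 and 2.27. Myh8 was at 0.85 (adjusted p 0.0015) and the slow Myh7 at 0.56 (0.0014), under the fold required. The coding sequences of these myosins are alike, and some reads were divided among them, so their separate values are uncertain. In the model of all 45 libraries Myh1 passed, and Myh2 and Myh4 did not (0.079 and 0.087).

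**Figure D4:**
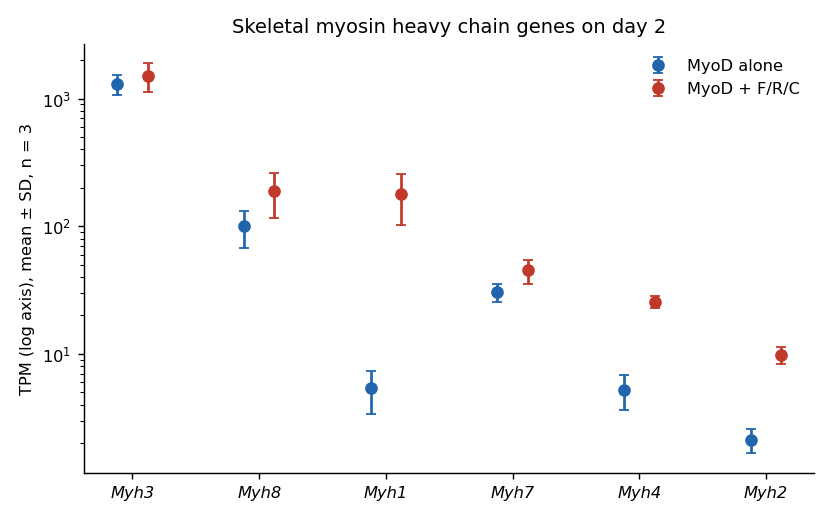
Points are mean TPM of 6 myosin heavy chain genes on day 2 on a log axis, with bars of SD over 3 libraries, in blue for MyoD alone and in red for MyoD with F/R/C. Myh3 is the highest in both arms, and Myh1 moves from 5.39 to 180 TPM.

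The E-box CAGCTG, a form of the site that MyoD binds, was in a promoter of 29.3% of the genes called lower (181 of 617 with a RefSeq promoter), 21.4% of those called higher (143 of 667) and 18.4% of all genes tested (1959 of 10646). These genes had 1.36, 1.29 and 1.28 promoter windows each, which was not adjusted for. Of all 32851 windows 16.3% held the letters, which read the same on both strands. In the muscle list, 5 of the 6 called genes with a promoter had the motif, as did 8 of the 20 not called, with 1.5 and 1.1 windows per gene. In other lists, 4 of the 5 called genes of the cyclic AMP list with a promoter, all of which rose, and 3 of 6 of the Wnt list had it too. The largest falls among those 5 are shown, Mb and Cav3, with the E-box in capitals, to give its place in each promoter. The Mb window is chr15:77022738-77023037 on the - strand and the Cav3 window chr6:112459255-112459554 on the + strand (GRCm38.p6).
Mb: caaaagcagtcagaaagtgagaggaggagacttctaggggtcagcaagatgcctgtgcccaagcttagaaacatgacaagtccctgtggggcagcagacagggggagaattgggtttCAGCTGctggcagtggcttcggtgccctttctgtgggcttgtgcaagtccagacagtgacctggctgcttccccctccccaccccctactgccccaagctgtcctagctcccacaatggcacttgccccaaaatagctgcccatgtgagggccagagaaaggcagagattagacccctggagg
Cav3: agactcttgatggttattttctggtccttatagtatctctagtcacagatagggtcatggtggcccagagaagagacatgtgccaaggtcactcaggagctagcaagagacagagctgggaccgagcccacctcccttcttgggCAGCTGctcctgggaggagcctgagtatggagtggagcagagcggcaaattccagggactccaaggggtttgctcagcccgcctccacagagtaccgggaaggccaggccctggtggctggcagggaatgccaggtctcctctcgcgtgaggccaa
The E-box starts 133 bases before the start of Mb (-133) in the window shown and 106 before that of Cav3 (-106). RefSeq gives a second start of Mb, from which the same E-box lies at -193. These promoters were chosen after the shares were seen. The SMAD palindrome GTCTAGAC was in a promoter of 0.15%, 0.81% and 0.31% of the genes called higher, called lower and tested that had one. These are 1, 5 and 33 genes.

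The muscle regulators moved in both directions. Of 14 tested, 3 rose and 1, Myod1, fell, against 6.61% and 6.32% of all genes tested. At an edgeR adjusted p under 0.05 alone, 10 were higher, against 22.3% of all genes tested, and 4 were lower. The 17 genes of the list summed to 3805 to 5347 CPM with F/R/C and 5106 to 7654 without. Eya1, a transcriptional coactivator of muscle development, rose by 1.1 on the log2 scale. Myf6, the regulator MRF4, had 2.06, 1.88 and 1.01 CPM with F/R/C against 3 reads in all without, a ratio of 33.1 (interval 11.0 to 163). Myog, myogenin, was at 595, 917 and 673 CPM against 1026, 1480 and 1461 (-0.84, adjusted p 9.6e-04), without overlap but under the fold required. Although the labels describe the F/R/C cells as fibres and progenitors, Pax7 and Myf5 had 0 reads in all 3 F/R/C libraries, where 3 reads correspond to 0.134 to 0.172 CPM over the day 2 libraries. Calcr, another satellite cell gene, had 0 reads in all 6. Muscle markers were present in both arms: the 8 marker genes summed to 7419 to 12393 CPM with F/R/C and 10600 to 15975 without.

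Of 11 tested surface and signalling markers of satellite cells, 2 rose and 1 fell, against 6.61% and 6.32% of all genes tested. Vcam1, the ligand of the integrin that contains Itga4, had 169, 121 and 183 CPM with F/R/C and 86.4, 49.3 and 82.8 without (1.15). Fgfr4 rose by 2.01, from 1.17 to 4.81 CPM up to 5.9 to 16.8. Ncam1 fell by 1.27. Cdh15, M-cadherin, was at 0.14 (edgeR adjusted p 0.12), at 854 to 1327 CPM against 829 to 1174. Without pairing Fgfr4 had an adjusted p of 0.054, and in the model of all 45 libraries Vcam1 had 0.34.

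Cell cycle genes were higher by less than 2-fold for the most part. All 24 proliferation genes had a positive log2 fold change, from 0.1 to 1.36, with a median of 0.77. At an adjusted p under 0.05 alone, 23 were higher, against 22.3% of all genes tested. Of these, 4 also reached the fold required, against 6.61% of all genes tested. They were the cyclin Ccne1 (1.36), the mitotic kinases Plk1 (1.07) and Aurkb (1.05), and Tyms (1.05), an enzyme of DNA synthesis. Ccne1 had 46.5, 44.3 and 65.7 CPM with F/R/C and 25.5, 13.4 and 23.9 without, at 26.0 to 31.3 in MEFs. Mki67 was at 81.3, 58.5 and 79.8 CPM against 60.8, 38.2 and 73.5 (0.4, edgeR adjusted p 0.019), and its arms overlapped. In a list of 8 genes, inhibitors of the cycle together with the cyclin Ccnd3, Cdkn1c alone was called, against 12.9% of all genes tested. Cdkn1a, p21, was at -0.72 (edgeR adjusted p 7.5e-04), with 1226 to 1868 CPM against 1992 to 3037. Plk1, Aurkb and Tyms fell under the fold required without pair 2 (0.86, 0.86 and 0.87). The number of called genes was 7 without pair 1 and 1 without pair 2, and in the model of all 45 libraries 1 of the 24 was called.

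Signalling ligands changed in several families. In the BMP and activin list 4 of 19 rose and 1 fell, against 6.61% and 6.32% of all genes tested. Besides Mstn, Inhbb, the β subunit of activin B, rose from 29.2, 20.2 and 22.3 CPM to 147, 94.2 and 166 (log2 fold change 2.51, edgeR adjusted p 1.1e-04), and Id4 by 2.03. Fstl3, which binds and blocks activins and myostatin, fell by 1.71. Bmp2 rose by 2.06, but at 1.55 to 4.29 CPM it did not pass without pair 1 (adjusted p 0.14) or pair 3 (0.066). In the IGF list Igf2 and Igfbp5 rose and Igfbp3 fell by 1.13, of 9 tested. Among 15 FGF genes Fgf2 fell by 2.86, from 75.2, 34.3 and 52.1 CPM to 15.9, 4.27 and 4.1, and the ERK phosphatase Dusp5 by 1.14. Fgf7 (1.09), the receptor Fgfr2 (1.32) and the ETS factor Etv1 (1.01) rose. Without pairing Fgf7 did not pass (0.15), and Dusp5 was at -0.87 without pair 3. In the Notch list 3 of 11 rose: Notch1 by 1.03, Notch3 by 1.36 and the target Hey1 by 1.28, against 6.61% of all genes tested. The list median was -0.24, 7 of its 11 members had negative log2 fold changes, and at an adjusted p under 0.05 alone 3 were higher and 4 lower. Notch1 was at 0.94 without pair 2, and Hey1 at 0.98 without pair 3.

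In lists of other lineages many members were too low to be tested. Of 4 adipocyte genes tested 2 rose, of 4 neural genes 1 rose, and the 1 epithelial gene tested rose. Of 3 endothelial genes 1 rose and 1 fell, and of 4 bone and cartilage genes 1 fell. Of 2 macrophage genes none was called. Over all genes tested, 6.61% were called higher and 6.32% lower. Lpl, lipoprotein lipase, rose from 72.2, 48.2 and 55.6 CPM to 557, 465 and 460 (log2 fold change 3.11, edgeR adjusted p 2.7e-05), and Pparg, the adipocyte regulator, from 0.539 to 1.31 CPM to 2.58 to 3.66 (1.7). The 7 adipocyte genes summed to 476 to 595 CPM with F/R/C and 64.4 to 92.2 without. The defining adipocyte genes Adipoq and Plin1 had 1 read each over the 6 libraries. Macrophage genes summed to at most 6.39 CPM, with Tyrobp at 0 in all 6 libraries. Endothelial genes summed to at most 8.8 CPM, with Egfl7 higher (1.82) and Cdh5 lower (-2.59). Epithelial genes summed to 10.5 to 28.7 CPM against 3.44 to 6.47, nearly all of it Krt18 (1.88), with Krt5 and Krt14 at 0. Neural genes summed to 97.4 to 112 CPM with F/R/C and 83.1 to 112 without, and in that list Sox2 was called higher (1.27) at no more than 2.37 CPM, and it did not pass with DESeq2 (adjusted p 0.16). Bone and cartilage genes summed to 43.9 to 49.6 CPM with F/R/C and 46.5 to 67.5 without, and Sp7 among them fell by 2.88. Of 10 stress genes Chac1 (1.18) and the heat shock gene Hspa1a (1.87) rose, and the list median was 0.78. Cdh5 did not pass without pair 2 (0.072) or 3 (0.081), nor Sp7 without pair 2 (0.06).

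Whether the day 2 response was kept was read in the libraries of days 4 and 10, which share no library with day 2, though the replicate numbers run through all days. On day 4, 2840 of 14656 genes were called (19.4%, with 9.99% higher and 9.39% lower). Of the 932 genes that rose on day 2, 891 were tested on day 4, and 648 of them (72.7%) were again higher and 3 lower. Of the 891 that fell, 878 were tested, and 604 (68.8%) were again lower and 5 higher. On day 10, 2942 of 15046 genes were called (19.6%, 8.37% higher and 11.2% lower). There 284 of 892 tested (31.8%) were higher and 32 lower among the day 2 rises, and 350 of 853 (41.0%) were lower and 26 higher among the falls. Leaving out pair 1 cut the day 10 calls to 760. The day 10 shares were not recomputed without it.

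By gene, Mstn rose on all 3 days (7.59, 8.23 and 6.89), as did Myh1 (5.06, 6.22 and 4.47) and Itga4 (2.66, 2.89 and 2.74). Pmepa1 fell on all 3 days (-3.97, -3.55 and -3.49), and so did Fn1 (-2.16, -3.75 and -4.56). Myod1 was lower on days 2 and 4 (-1.44 and -1.46) and at -0.26 on day 10, where it was not called. Over all genes tested, 9.99% were called higher and 9.39% lower on day 4, and 8.37% and 11.2% on day 10. Of the cyclic AMP list, 5 of 22 tested rose on day 4. On day 10, 2 of its 23 tested rose and 5 fell. The muscle list, with 34 tested on both days, had 2 genes higher and 3 lower on day 4. It had 2 higher and 1 lower on day 10, and none of these muscle counts exceeded the share of all genes. The proliferation list, with 24 tested, had 13 higher on day 4 and 5 on day 10, with medians of 1.03 and 1.8. The TGF-β list, with 23 tested, had 15 and 14 lower on these days.

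**Figure D5:**
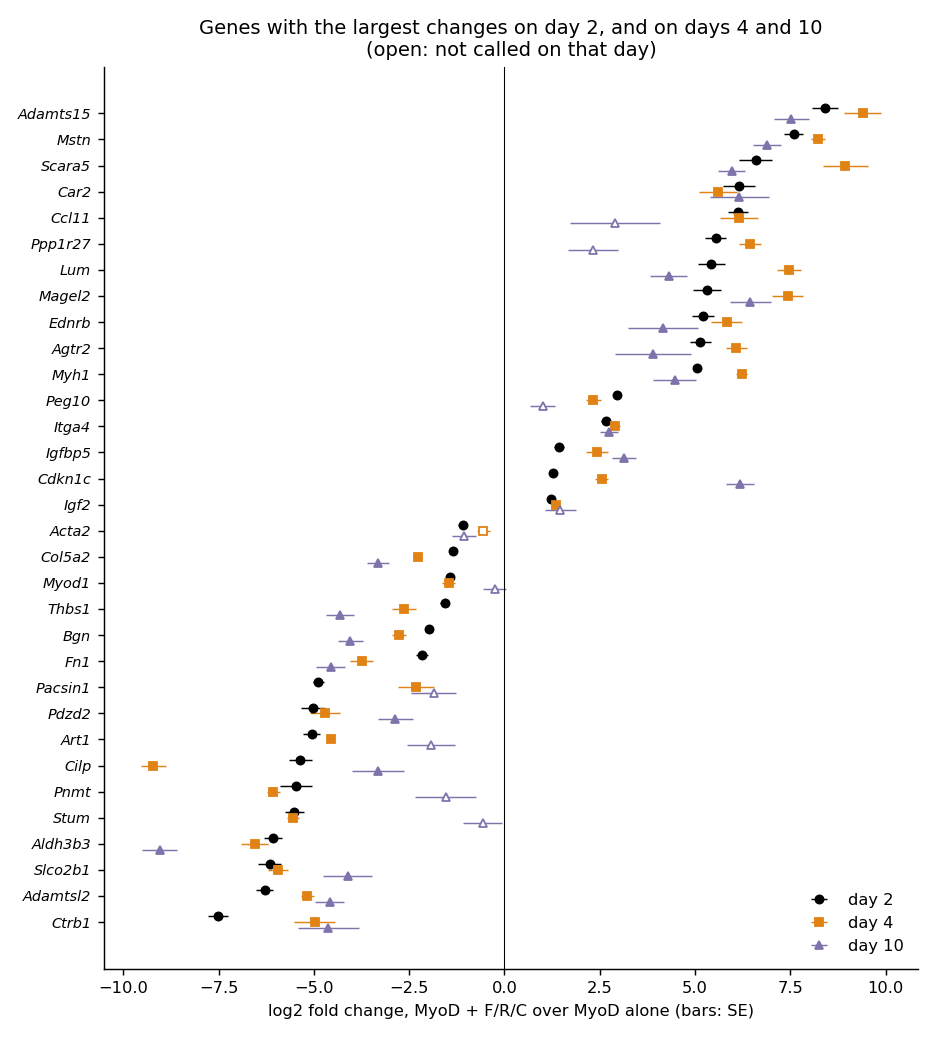
The 32 genes with the largest changes in fold or in CPM on day 2 are ordered by their day 2 log2 fold change (circles) and shown again on day 4 (squares) and day 10 (triangles), with bars of SE. Filled symbols were called on that day and open ones were not. All 32 keep their sign on days 4 and 10, and Peg10, Stum and Myod1 are among those not called on day 10.

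The difference between the day 4 and the day 2 effect was tested directly in the 12 libraries of both days, and 687 of 15192 genes (4.52%) were called. Muscle genes that had fallen on day 2 were among them: Mymk (difference 1.37, edgeR adjusted p 9.7e-04), Chrna1 (1.46) and Ckm (2.24) no longer differed beyond the threshold between the arms on day 4, at -0.22, 0.24 and 0.68. The TGF-β ligand Tgfb2 went from -1.09 to 0.81 (difference 1.92, adjusted p 1.7e-04). Fn1 and Fbln2 fell further, by 1.56 and 2.63. The genes named here were picked with day 2 values known, and those values also enter the difference. The count of called differences was 82 without pairing, 191 in a model of all 33 time-course libraries and 124 without pair 2.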

How the data were processed

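Poly-A RNA was sequenced as stranded single-end libraries, per the labels' protocols. The submitters' processing notes name bcl2fastq 2.19, Trimmomatic 0.36, kallisto 0.44, edgeR 3.28 and GRCm38.p6. The transcript release and the strand setting are not given in the sources used here. The authors deposited estimated counts, not normalised, and TPM values (scaled to transcript length) for each transcript. Kallisto divides a read that fits several transcripts. For each of 35675 genes of GENCODE M21, its transcripts’ estimated counts were added up and rounded to whole numbers. Of the 147 tested genes named, 97 had sums that were not whole, so some of their reads were divided with other genes. Matched transcripts held 99.65% to 99.72% of day 2 reads, and 23228 genes had whole sums (within 0.001) in all 6 libraries. CPM were scaled by TMM factors over all 45 libraries, and only TPM compares genes.

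Each day was fitted alone with edgeR 4.0.16 in R 4.3.3 (TMM, filterByExpr, glmQLFit, glmQLFTest) with the replicate number as a block, which left 2 residual degrees of freedom on day 2. The pairing follows the comparison as set and the data: deviations of same-numbered day 2 libraries correlated at 0.353 to 0.382, those of other numbers at -0.239 to -0.14. Deviations cancel within a group, so the negative values largely follow from the positive ones and add no separate evidence. Y-linked genes summed to at least 153 CPM in number 3 and at most 0.715 CPM in numbers 1 and 2 in both arms. Replicate pairs differed by more than sampling noise (chi-square per degree of freedom 28.2 or more). A fold against an arm with at most 3 reads in each library is a ratio of summed reads with an exact 95% interval for counting error.

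The comparison and the 22 gene lists were chosen with earlier results of these data known. Named genes were the 10 largest rises and falls among called protein-coding genes with the same direction in all pairs and at least 5 CPM, the 6 largest rises and falls in CPM, list members and Myod1. Mitochondrial and sex-linked genes were left out of the first 2 sets. Some list members are counted and not reported here by name. Alternatives were no pairing, RLE factors, DESeq2 1.42.0, no filter on low counts, no minimum fold, larger sets of libraries, whole counts alone and each pair left out.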

Additional observations from a re-analysis of the deposited data

Results flagged for a closer look

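The test of the day 4 effect minus the day 2 effect (edgeR, adjusted p under 0.05 and an absolute difference of at least 1 on the log2 scale) was passed by 25 of the 147 tested genes named in the text. Over all genes, 687 of 15192 (4.52%) passed. Many named genes were chosen by day 2 values, which also enter the difference, so the 25 are a description. All values here are the day 4 effect minus the day 2 effect. Among muscle genes it was 2.24 for Ckm, 1.46 for Chrna1, 1.37 for Mymk, 1.36 for Ncam1, 1.16 for Myh1, 5.96 for Myf6, -1.06 for Myh8, -1.1 for Myh2 and -1.11 for Myh7. Myh8, at 0.85 on day 2 and -0.26 on day 4, was called on neither day. Among TGF-β and matrix genes it was 1.92 for Tgfb2, -1.01 for Nox4, -1.06 for Ltbp2, -1.56 for Fn1, -2.63 for Fbln2, 3.1 for Col14a1 and 1.66 for Col6a2. Tgfb2 was called lower on day 2 and not called on day 4. For signalling and cell cycle genes the difference was -1.1 for Fos, -1.47 for Ccnd1, 1.24 for Cdkn1c, 1.21 for Hey1 and -1.17 for Fgf7. It was 2.76 for Pacsin1, -1.3 for Vcam1, 1.42 for Tbx18 and 1.07 for Lpl. Myf6 had 3 reads in the day 2 libraries of MyoD alone together, so its size is uncertain. Every group has 3 libraries, too few for a check of single outlying libraries.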

How the results depend on the processing

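The day 2 count of 1823 was 1421 without the replicate block, where 1412 of the genes were kept, 1825 with RLE factors, 1671 with DESeq2, 2029 without a filter on low counts and 1767 in the 33 time-course libraries. It was 6279 without a minimum fold change, 854 in all 45 libraries without pairing and 916 among the 5514 tested genes with whole counts. In the 45-library model 43.2% of the calls were higher, against 51.1%. Leaving out 1 pair gave 1634 to 1881 calls on day 2, 2087 to 2969 on day 4, 760 to 4129 on day 10 and 124 to 544 for the difference between days, and 1273 of the day 2 genes were called in all 3 cases. Without pair 1 the day 10 count was 760, without pair 2 the difference count was 124, and without pair 3 it was 411. That difference count was 82 without the replicate block and 191 in the 33 libraries. Without the block the day 4 count was 2493 and the day 10 count 3042, and 19 of the 147 tested genes named lost their call. On day 10 the numbers of pair 3 barely deviated together (r 0.061), so pairing is less sure there. No named gene turned in direction except Col3a1, uncalled, at -0.05 with all pairs, 0.11 without pair 2 and -0.23 without pair 3. The causes were not tested. Depth limits genes under about 0.172 CPM, the level of 3 reads.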

Other observations

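Imprinted genes, which are expressed from 1 parental copy and include several regulators of growth, appeared repeatedly among the largest changes. The list was made after the values were seen, and genes that prompted it are among its members. Its count and median are therefore a description without a test. Of 23 genes 21 were tested, with a median log2 fold change of 0.41. Of these, 8 were called higher and none lower, against 6.61% higher and 6.32% lower over all genes tested. Besides Igf2, Peg10, Cdkn1c and Magel2, the 4 others were Mest, Nnat, Rtl1 and Asb4. Mest had 427, 430 and 895 CPM with F/R/C and 104, 101 and 314 without (1.9). Nnat had 302, 206 and 121 CPM against 26.6, 18.8 and 18.6 (3.25), with no overlap between arms. Rtl1 had 4.74, 10.3 and 15.5 CPM against 1.46, 2.35 and 3.24 (2.09), and Asb4 stood at 1.56. H19, which shares its control region with Igf2, was at -0.3 (edgeR adjusted p 0.012) with 7874, 10870 and 10751 CPM against 9637, 13586 and 13830. Peg3 was at 0.1. Without the replicate block, the number called was 6, and in the model of all 45 libraries it was 3.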
